A study of Mus musculus with 15 samples.

Results

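Il4i1, Ido1 and the aryl hydrocarbon receptor (Ahr) belong to a route by which cells turn tryptophan into signalling metabolites. The set followed here held 9 of the 34432 genes listed in both normalized count tables, taken by gene symbol: Il4i1, Ido1, Kynu, Ahr, Arnt, Ahrr, Cyp1a1, Cyp1b1 and Tiparp. The genes were chosen with each treated group's difference from its own control group in view, so in those comparisons their values are a description and carry no p-value. RNA-sequencing covered 15 libraries of CT26 cells, a mouse colon carcinoma line, in 2 experiments on PRMT1, an enzyme that methylates arginine residues of proteins. In the knockdown experiment, 3 libraries came from cells with a control hairpin (shControl) and 3 from cells with a tet-inducible hairpin against Prmt1 (shPrmt1). The hairpin was carried by a lentivirus in a drug-selected pool of cells, and shPrmt1 cells received DOX for 3 days; the labels do not say whether shControl cells received it. In the inhibitor experiment, 3 libraries each came from cells given vehicle, MS023 or GSK3368715, both inhibitors of type I arginine methyltransferases, at 6 µM for 48 h. Values are gene counts that the authors divided by DESeq2 size factors (normalized counts), and the tables of the 2 experiments were normalized separately.

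IDO1 opens the indole ring of tryptophan and thereby starts the kynurenine pathway, in which kynureninase (encoded by Kynu) acts further down. IL4I1 is a secreted L-amino acid oxidase that converts aromatic amino acids, tryptophan included, into keto acids. Products of both enzymes can bind AHR, a ligand-activated transcription factor that pairs with ARNT on DNA, and Cyp1a1, Cyp1b1, Tiparp and the repressor gene Ahrr are among its classical target genes. In tumors this route is known for dampening T cells.

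AHR with ARNT is known to bind the core GCGTG of the dioxin response element, so the promoters were searched for it. RefSeq promoters (GRCm38.p6, 250 bases before to 50 after the annotated start) were found for 6 of the 9 genes, namely Il4i1, Arnt, Ahrr, Cyp1a1, Cyp1b1 and Tiparp, and Ido1, Kynu and Ahr had no entry. The sequences are shown for Il4i1, the enzyme whose levels moved most, and for 3 AHR targets with high or very low levels. They are written 5′ to 3′ along the gene, and capitals mark GCGTG or, on the other strand, CACGC. Il4i1 lies at chr7:44836038-44836337 (plus strand), Tiparp at chr3:65528197-65528496 (plus strand), Cyp1a1 at chr9:57697363-57697662 (plus strand) and Ahrr at chr13:74292282-74292581 (minus strand).
Il4i1: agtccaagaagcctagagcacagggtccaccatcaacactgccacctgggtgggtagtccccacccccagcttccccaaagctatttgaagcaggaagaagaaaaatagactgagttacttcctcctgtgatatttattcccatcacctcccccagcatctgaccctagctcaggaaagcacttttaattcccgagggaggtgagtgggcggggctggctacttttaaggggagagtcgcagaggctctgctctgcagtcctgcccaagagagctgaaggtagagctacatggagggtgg
Tiparp: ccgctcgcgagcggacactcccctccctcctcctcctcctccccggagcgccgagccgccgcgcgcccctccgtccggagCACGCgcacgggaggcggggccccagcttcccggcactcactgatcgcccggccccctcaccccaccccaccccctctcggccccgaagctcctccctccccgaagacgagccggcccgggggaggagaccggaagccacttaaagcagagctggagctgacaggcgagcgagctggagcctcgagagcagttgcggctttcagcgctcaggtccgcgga
Cyp1a1: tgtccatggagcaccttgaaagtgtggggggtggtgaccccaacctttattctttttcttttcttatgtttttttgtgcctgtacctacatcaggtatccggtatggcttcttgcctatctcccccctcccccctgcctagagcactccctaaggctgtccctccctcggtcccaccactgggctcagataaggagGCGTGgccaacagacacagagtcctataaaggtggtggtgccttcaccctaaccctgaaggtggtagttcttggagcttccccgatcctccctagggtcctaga
Ahrr: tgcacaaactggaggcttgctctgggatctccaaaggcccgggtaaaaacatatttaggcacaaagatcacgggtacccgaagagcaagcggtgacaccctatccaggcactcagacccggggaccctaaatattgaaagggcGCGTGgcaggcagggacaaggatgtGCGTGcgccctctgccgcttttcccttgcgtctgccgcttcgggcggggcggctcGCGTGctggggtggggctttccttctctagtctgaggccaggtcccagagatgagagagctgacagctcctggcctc

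The core was present 3 times in the Ahrr window, at -107, -82 and -27 from the annotated start (negative positions lie upstream and give the first base of the match). Cyp1a1 held 1 match at -54, Cyp1b1 held 1 at -76, Tiparp 1 at -170 and Arnt 1 at -29, while the Il4i1 window held none. The Il4i1 and Cyp1a1 windows lie inside the genes as annotated in GENCODE, which begin at 44816387 and 57687928 on the plus strand. Starts elsewhere in these genes were not searched. Of all 32851 promoters of this length, 32.4% held the core on either strand, so its presence is common. The interferon-stimulated response element, searched as GAAA followed by any 2 bases and another GAAA, was in 3.44% of all promoters, and the gamma-activated site, searched as TTCNNNGAA, in 8.3%. Neither was found in the 6 windows, on either strand. These 2 patterns do not overlap the GCGTG core, and a match is a description of letters and not of binding.

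The libraries held 17284091 to 29233738 reads on genes in the knockdown experiment and 40119305 to 93697833 in the inhibitor experiment. Prmt1 itself fell from 5646 ± 62.2 to 704 ± 49.8 normalized counts (SD, n = 3) in shPrmt1 cells. Of 8 epithelial markers, Krt18, Krt20, Krt8 and Cdx2 had reads in every library, but Epcam had 0 reads in all 15 and Cdh1 had 0 in 11. Their summed level was 724 to 810 normalized counts in shControl and 541 to 661 in shPrmt1 libraries, and 1245 to 1415 in vehicle, 1760 to 1851 in MS023 and 1408 to 1609 in GSK3368715 libraries. Of 9 leukocyte markers, 8 had a read in at least 1 library and Cd3e had none. The leukocyte sum was 8.80 to 16.6 normalized counts in shControl, 7.27 to 10.3 in shPrmt1, 15.9 to 19.3 in vehicle, 18.6 to 25.0 in MS023 and 10.4 to 27.9 in GSK3368715 libraries. The 3 endothelial markers summed to 11.5 to 12.3 in shControl and 2.42 to 8.002 in shPrmt1 libraries, and Cdh5 and Kdr had 0 reads in 13 of 15 libraries each. The leukocyte and endothelial sums reach at most 40 and 47 reads per library, and the markers' part in the results was not tested.

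Expression within the axis was very unequal. Per kilobase of the longest transcript, vehicle cells held 1977 normalized counts of Tiparp, 1399 of Arnt, 690 of Ahr and 6.98 of Il4i1. In each of the 5 groups this order was the same, and the ranges of neighbouring genes over the 3 libraries did not overlap. Below Il4i1, Cyp1a1 (0.859 per kilobase in vehicle cells), Ahrr (0.316) and Kynu (0.246) followed, with ranges that overlapped between Cyp1a1 and Ahrr and between Ahrr and Kynu, and Ido1 and Cyp1b1 were at 0. The receptor, its partner and the target Tiparp were thus present at high levels in cells with almost no RNA of the kynurenine enzymes Ido1 and Kynu. Only Il4i1, Ahr, Arnt and Tiparp, 4 of the 9 genes, reached 10 normalized counts in 3 or more libraries, the filter for testing, and in the knockdown experiment Il4i1 passed it through the shPrmt1 libraries alone.

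Il4i1 (ENSMUSG00000074141, chromosome 7 of mm10, 44816387 to 44840809, plus strand) was the member that differed most from control in all 3 treated groups, among the 4 that passed the filter. In shControl libraries it had 9.68, 2.16 and 3.32 normalized counts, which are 11, 3 and 3 reads. In shPrmt1 libraries it had 18.3, 10.9 and 20.4 normalized counts, or 16, 9 and 20 reads. All shPrmt1 libraries lay above all shControl libraries, although the highest control and the lowest knockdown library were close. The means were 5.05 ± 4.05 and 16.5 ± 4.99 normalized counts (SD, n = 3), a difference of 1.69 (standard error 0.53) on the scale of log2(normalized count + 1), which understates changes of weakly expressed genes and is the scale of all log2 differences given here. With so few reads this difference depended on a single library and on the scale, and it was 2.20 without shControl 1 and 1.14 with a pseudocount of 5.

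The inhibitor libraries were deeper and showed graded levels of Il4i1. Vehicle libraries had 12.2, 17.3 and 18.1 normalized counts (10, 21 and 15 reads). MS023 libraries had 35.0, 38.3 and 31.0 (56, 35 and 32 reads), and GSK3368715 libraries had 66.3, 54.8 and 65.4 (87, 51 and 44 reads). None of the 3 groups overlapped another, with vehicle lowest and GSK3368715 highest. The log2 difference from vehicle was 1.10 (standard error 0.24) with MS023 and 1.92 (standard error 0.24) with GSK3368715, a ratio of means of 2.19 and 3.92. Both treated groups share the vehicle libraries.

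**Figure D1:**
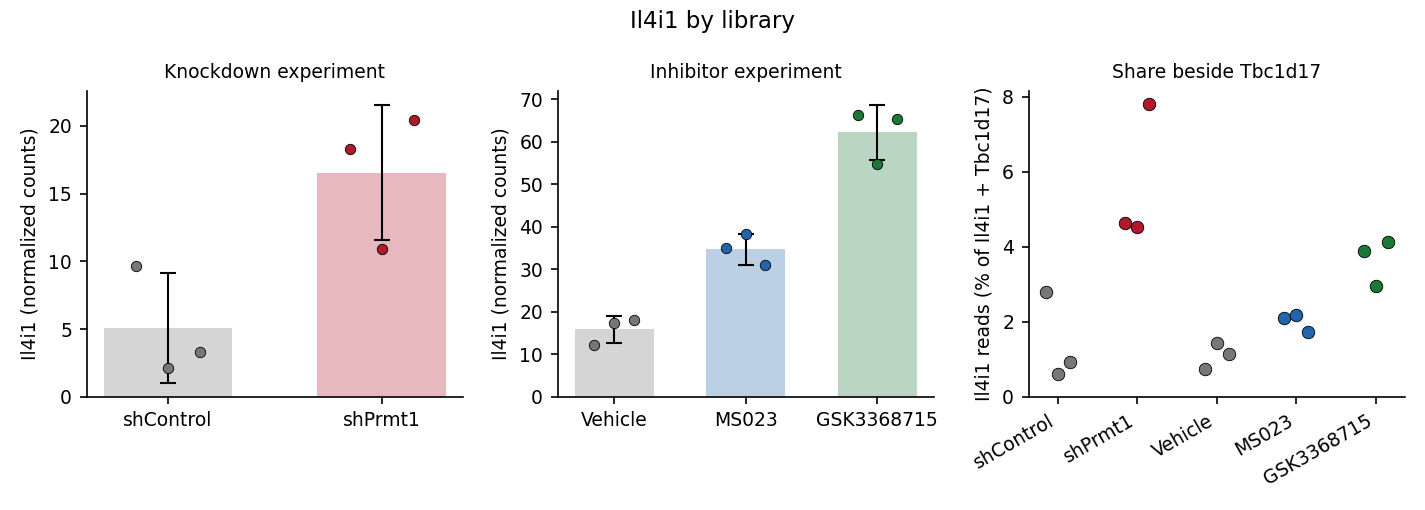
Il4i1 in each library (points), with group means (bars) and SD (error bars, n = 3), in normalized counts for the knockdown and inhibitor experiments. The right panel gives Il4i1 reads as a percentage of the reads of Il4i1 and the antisense gene Tbc1d17. In both measures every treated library lies above its own controls, and GSK3368715 libraries reach 54.8 to 66.3 normalized counts. Both measures rest on the same Il4i1 reads.

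The annotation places other genes over Il4i1. Of its exonic bases, 3423 (83.9%) also lie in exons of Tbc1d17 on the opposite strand, through 1 of the 12 annotated Tbc1d17 transcripts. Exons of Nup62 on the same strand hold 97 of its bases, and exons of Atf5 on the opposite strand hold 82. Whether counting used the strand is not given in the sources used here, so reads of Il4i1 may not be separable from those of Tbc1d17 or Atf5. Tbc1d17 was far more abundant, with 1195 to 1630 normalized counts in vehicle libraries. Its difference from control was -0.34 in shPrmt1 (adjusted p = 0.233 by limma), 0.23 with MS023 (adjusted p = 0.146) and 0.19 with GSK3368715 (adjusted p = 0.32), none past the threshold of 0.05. Il4i1 made up 0.599 to 2.79% of the reads of both genes in shControl, 4.52 to 7.81% in shPrmt1, 0.744 to 1.43% in vehicle, 1.74 to 2.18% in MS023 and 2.97 to 4.12% in GSK3368715 libraries. The share separated each treated group from its control as the normalized counts did. It holds the same Il4i1 reads, so it repeats that difference and is no independent check on the overlap. Nup62 was lower by 0.22, 0.21 and 0.19 in the same 3 comparisons. Atf5 had 4547 to 5510 normalized counts in shControl and 3344 to 4941 in shPrmt1 libraries. In the inhibitor experiment it had 17857 to 24064 in vehicle, 19716 to 23696 in MS023 and 20473 to 23690 in GSK3368715 libraries. The part of the overlap in the Il4i1 values was not tested. Il4i1 is known from myeloid cells, and the leukocyte marker sums given above overlapped between treated and control libraries in all 3 comparisons. They were 18.6 to 25.0 with MS023 and 10.4 to 27.9 with GSK3368715, against 15.9 to 19.3 in vehicle libraries. Of these 9 markers, Cd3e was at 0 in all 15 libraries, Adgre1 and Tyrobp in 14 each, Itgam in 8, Ptprc and Itgax in 5 each, Csf1r in 3, Lyz2 in 2 and Flt3 in 1. Lyz2 reached up to 23 reads in a library, and the markers' part in the Il4i1 values was not tested.

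Ido1 (ENSMUSG00000031551, chromosome 8, 24584136 to 24597009, minus strand), the gene of the classical tryptophan dioxygenase, was at or near 0 throughout. A single read was found in 1 MS023 library, and the other 14 libraries had 0 reads. With 3 reads as the limit that a count of 0 allows over a group, 0 reads still allow 0.0414 CPM (reads of a gene scaled by the reads on all genes) in shControl, 0.0542 in shPrmt1, 0.0175 in vehicle and 0.0173 in GSK3368715 cells. The two-sided exact 95% Poisson intervals, drawn in the plot of the low genes, end somewhat higher, at 0.0509, 0.0666, 0.0215 and 0.0213 CPM. Such limits cover counting error only, because reads without molecular identifiers are not independent molecules. The single read in MS023 cells had an exact 95% Poisson interval of 0.000122 to 0.0268 CPM. No increase of Ido1 was thus detected in any treated group, and levels below these limits could not be seen at this depth.

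Kynu, the kynureninase gene, had 0 reads in all 6 knockdown libraries, and 2 reads in vehicle cells, 6 after MS023 and 4 after GSK3368715, over 3 libraries each. The corresponding levels of 0.0116, 0.0289 and 0.0231 CPM had exact 95% Poisson intervals of 0.00141 to 0.042, 0.0106 to 0.0628 and 0.0063 to 0.0592. These intervals overlapped, but they cover counting error only and their overlap is no test, so a difference in Kynu was not tested.

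Of the receptor genes, Ahr (ENSMUSG00000019256, chromosome 12, 35497974 to 35535038, minus strand) was higher in every treated group. It had 1233, 1300 and 1149 normalized counts in shControl and 1479, 1812 and 1461 in shPrmt1 libraries, without overlap. In the inhibitor experiment it had 3558, 4044 and 3886 in vehicle, 5938, 6356 and 5979 in MS023 and 5488, 5490 and 5380 in GSK3368715 libraries. All 6 inhibitor-treated libraries lay above all vehicle libraries, and the MS023 libraries lay above the GSK3368715 libraries, an order opposite to that of Il4i1. The log2 difference from control was 0.36 (standard error 0.10) in shPrmt1, 0.67 (standard error 0.06) with MS023 and 0.51 (standard error 0.06) with GSK3368715. These are ratios of means of 1.29, 1.59 and 1.42. In the knockdown the difference ranged from 0.26 without shPrmt1 2 to 0.42 without shPrmt1 3.

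Arnt, the DNA-binding partner of AHR (ENSMUSG00000015522, chromosome 3, 95434388 to 95497240, plus strand), moved little. It had 1624, 1554 and 1534 normalized counts in shControl and 1795, 1690 and 1690 in shPrmt1 libraries. Vehicle libraries had 6073, 6037 and 6043, MS023 libraries 6704, 6856 and 6749, and GSK3368715 libraries 6468, 6539 and 6237. The treated libraries lay above their controls in all 3 comparisons, by 0.14, 0.16 and 0.08 on the log2 scale (standard error 0.04 in both inhibitor contrasts). With MS023 the difference was 0.22 when every library was set to the same upper quartile. Ahrr, the repressor of AHR and itself a target, had 2 reads in shControl, 3 in shPrmt1, 4 in vehicle cells, 2 after MS023 and 5 after GSK3368715, over 3 libraries each, with no group separated from its control.

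Of the 3 target genes, Tiparp, which encodes an ADP-ribosyltransferase that acts back on AHR, was the only one with substantial RNA (ENSMUSG00000034640, chromosome 3, 65528410 to 65555518, plus strand). It had 2145, 2364 and 2013 normalized counts in shControl and 1959, 2627 and 1914 in shPrmt1 libraries. Vehicle libraries had 7784, 9004 and 8073, MS023 libraries 7964, 8738 and 7999, and GSK3368715 libraries 7429, 8824 and 7925. Treated and control libraries overlapped in all 3 comparisons, with log2 differences of -0.02, -0.01 and -0.04, and the sign turned when single libraries were left out. In the knockdown, for example, the difference was -0.16 without shPrmt1 2 and 0.06 without shPrmt1 3. Tiparp shares 223 exonic bases with 4931440P22Rik on the opposite strand, whose level of 47.5 normalized counts in vehicle cells is small beside it.

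**Figure D2:**
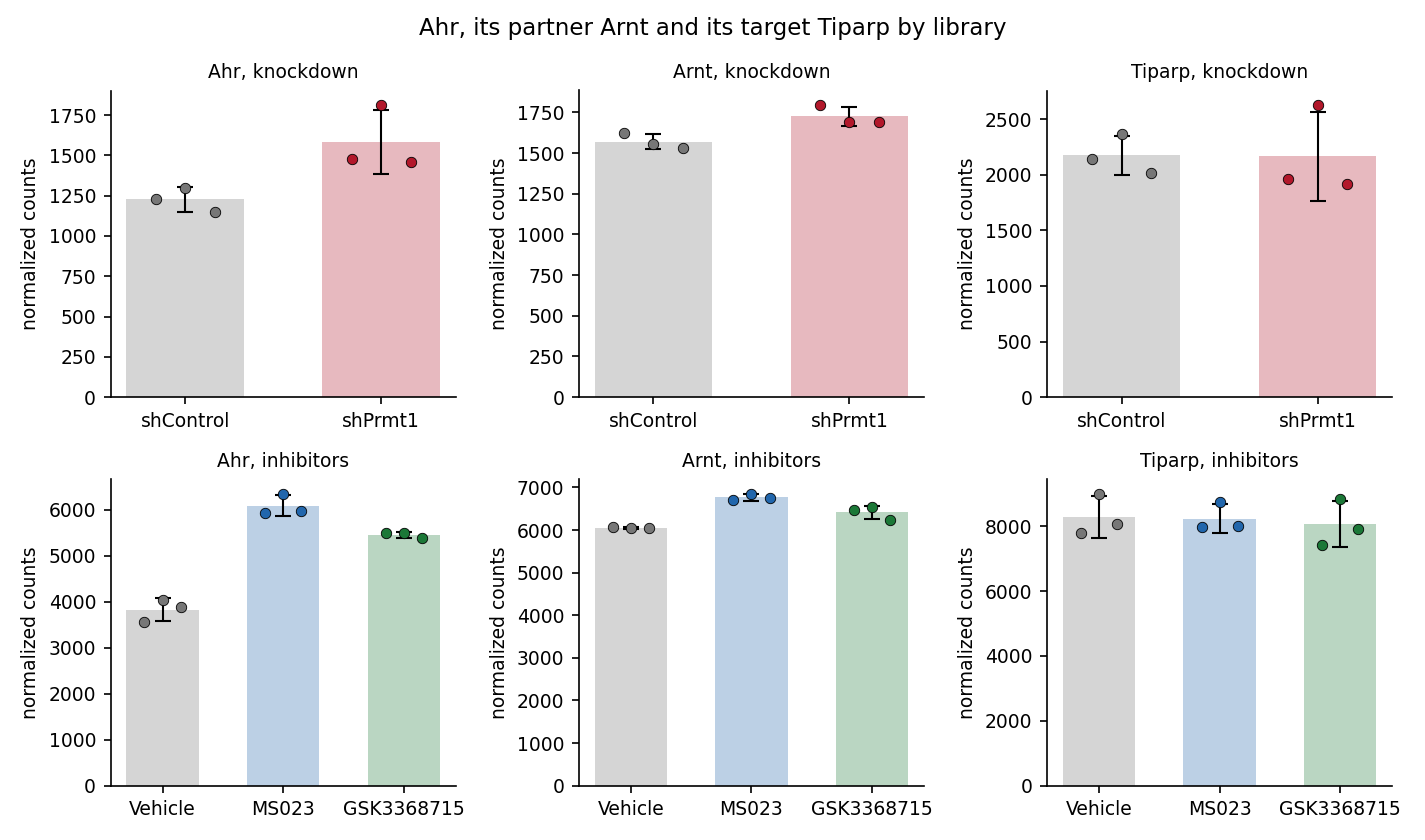
Normalized counts of Ahr, Arnt and Tiparp in each library (points), with group means (bars) and SD (error bars, n = 3), above for the knockdown and below for the inhibitor experiment. Ahr libraries of every treated group lie above their controls, Arnt libraries do so by a small margin, and Tiparp libraries overlap.

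Cyp1a1 and Cyp1b1, the cytochrome P450 genes usually read as AHR reporters, were nearly silent. Cyp1b1 had 0 reads in all 15 libraries. Cyp1a1 had 1 read in shControl and 4 in shPrmt1 cells, and 7 in vehicle cells, 12 after MS023 and 14 after GSK3368715, each over 3 libraries. Its level was 0.0407 CPM in vehicle (exact 95% Poisson interval 0.0164 to 0.0839), 0.0577 in MS023 (0.0298 to 0.101) and 0.0809 in GSK3368715 cells (0.0442 to 0.136). In the knockdown it was 0.0138 CPM in shControl and 0.0722 in shPrmt1 cells. Summed over 3 libraries, Cyp1a1 was thus higher in each treated group than in its control, on a few reads. Unlike those of Ahr, its single libraries overlapped between treated and control groups in all 3 comparisons. The intervals of treated and control groups overlapped, which is no test, so a difference in Cyp1a1 was not tested. The windows printed above hold the GCGTG core for both Tiparp, the most abundant of the 9 genes, and Cyp1a1 and Ahrr, with a few reads.

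**Figure D3:**
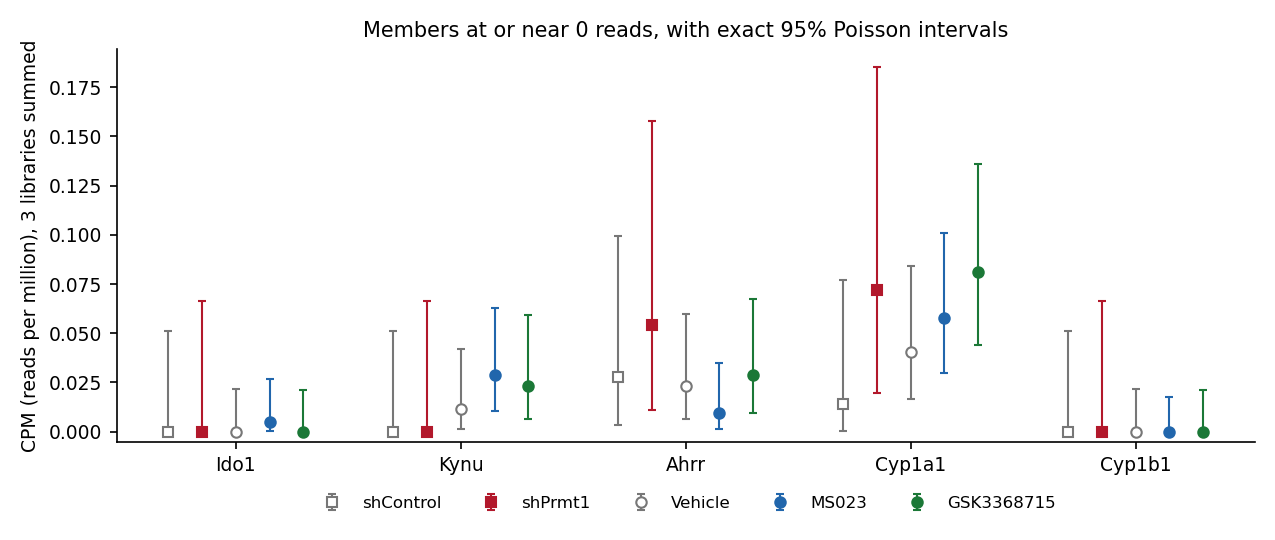
CPM of Ido1, Kynu, Ahrr, Cyp1a1 and Cyp1b1 in each group, with the reads of 3 libraries summed and bars giving exact 95% Poisson intervals. All 5 genes stay below 0.1 CPM, and the intervals of treated and control groups overlap.

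Only 4 of the 9 genes passed the filter. Of these 4, limma called 1 in shPrmt1 against shControl, where 14.7% of 11485 genes tested were called in either direction. It called 3 with MS023, where 27.9% of 13014 genes were called, and 2 with GSK3368715, where 9.64% were. Il4i1, Ahr and Arnt were the genes whose treated libraries all lay above the controls in each comparison. Over all genes tested, treated libraries were all higher for 19.2% of genes in the knockdown, 22.4% with MS023 and 13.7% with GSK3368715. Because the genes were chosen on these comparisons, nothing is read from these counts. In a likeness measured as Pearson's r over 15 libraries, each set against its control mean, the genes most like Il4i1 among 11471 were Znfx1 (0.931), Ncbp3 (0.904) and Tmem229b (0.894). Those most like Ahr were Gm4631 (0.981), Gpalpp1 (0.976) and Rpl5 (0.969), those most like Arnt were Txndc16 (0.958), Vps51 (0.949) and Spon2 (0.948), and those most like Tiparp were Spred1 (0.930), Acsl4 (0.928) and Acbd5 (0.927). The libraries share their groups and controls, so these coefficients are descriptions without a test.

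The inhibitors, given at the same dose and for the same time, were then compared directly, as the only pair of compounds. This contrast itself was not used to choose the genes, and 0.515% of 13014 genes were called in it. The choice did use the same treated libraries, each against vehicle. The p-values and intervals of the 4 genes below are therefore not independent of that choice. Il4i1 was 62.2 ± 6.42 normalized counts with GSK3368715 and 34.8 ± 3.65 with MS023 (SD, n = 3), a log2 difference of 0.82 (95% interval 0.30 to 1.34, adjusted p = 0.175 by limma over all genes). Every GSK3368715 library lay above every MS023 library, as for 11.4% of all genes, but the difference missed the threshold, and its adjusted p ranged from 0.111 to 0.405 over the alternatives tried. Ahr was lower by 0.16 with GSK3368715 (95% interval of the difference -0.29 to -0.03, adjusted p = 0.269 by limma), and Arnt by 0.08 (-0.17 to 0.02, adjusted p = 0.486). Both lay without overlap below MS023, as did 9.95% of all genes. Tiparp differed by -0.03 (-0.20 to 0.14, adjusted p = 0.892 by limma), and its libraries overlapped. None of the 4 genes was called by limma, edgeR or DESeq2, and Il4i1 and Ahr had an unadjusted p under 0.05 in limma. The 95% intervals are not adjusted for the number of genes tested. They reach past 2-fold for Il4i1 and stay within it for Ahr, Arnt and Tiparp.

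The genes around the axis were read from 5 lists of 43 genes that are not in the set, and these were tested in every comparison. The lists were chosen with earlier results of these data known, so counts of calls in them are descriptions. Of the 27 that passed the filter in the knockdown, 5 were called higher and 4 lower, where 7.5% and 7.17% of all genes were called. Of 28 in the inhibitor experiment, 9 were called higher and 5 lower with MS023 (13.7% and 14.1% of all genes), and 3 higher and 1 lower with GSK3368715 (5.16% and 4.47%). The median log2 difference of the listed genes was -0.13, 0.06 and 0.06 in the 3 comparisons, against 0.00 over all genes tested in each.

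Among the other AHR target genes, Gsta1 rose in all 3 comparisons and Ugt1a6a in shPrmt1 and with MS023. Gsta1, a glutathione transferase, had 17.6, 23.0 and 26.5 normalized counts in shControl and 117, 137 and 122 in shPrmt1 libraries. With inhibitors it went from 45.2, 55.3 and 62.7 in vehicle to 226, 219 and 227 in MS023 and 96.8, 115 and 128 in GSK3368715 libraries. Each treated group lay wholly above its control. It rose by 2.44 in shPrmt1 (standard error 0.20, adjusted p = 2.3e-04 by limma), 2.03 with MS023 (standard error 0.16, adjusted p = 3.5e-05) and 1.05 with GSK3368715 (standard error 0.16, adjusted p = 0.00424). Gsta1 has near-identical copies in Gsta2, Gm10639 and Gm3776, so its share of the reads is uncertain, and the 4 genes together differed by 2.75, 2.16 and 1.05. Ugt1a6a, a glucuronosyltransferase, rose by 2.11 in shPrmt1 (standard error 0.20, adjusted p = 4.9e-04) and by 1.02 with MS023 (standard error 0.20, adjusted p = 0.00368), with 0.33 for GSK3368715 (adjusted p = 0.324). It shares exons with 8 other Ugt1a genes, and their sum differed by 1.77, 0.76 and 0.15.

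The other members of this list did not move together. Nqo1, a quinone reductase, rose by 1.02 with MS023 (adjusted p = 3.7e-04 by limma) and 0.54 with GSK3368715 (adjusted p = 0.0263), while its difference in shPrmt1 was -0.39 (adjusted p = 0.348). Aldh3a1, an aldehyde dehydrogenase, had 108, 75.6 and 63.0 normalized counts in shControl and 36.6, 38.8 and 35.7 in shPrmt1 libraries and fell by 1.10 (adjusted p = 0.0144). With the inhibitors Aldh3a1 differed by 0.28 (adjusted p = 0.0821) and 0.31 (adjusted p = 0.0966). Ereg, a ligand of the EGF receptor, rose by 0.49 in shPrmt1 (adjusted p = 0.0234) and fell by 0.64 with MS023 (adjusted p = 1.6e-04) and by 0.30 with GSK3368715 (adjusted p = 0.022). Xdh, xanthine dehydrogenase, rose by 0.40 with MS023 (adjusted p = 0.0292). Of the 12 genes, 7 passed the filter, with 3 called higher and 1 lower in shPrmt1 (7.5% and 7.17% of all genes). Called higher and lower were 4 and 1 with MS023 (13.7% and 14.1%), and 2 and 1 with GSK3368715 (5.16% and 4.47%). The median over the 7 genes that passed was 0.19, 0.40 and 0.31. Cyp1a2, Cyp2s1, Scin, Serpinb2 and Abcg2 did not pass the filter.

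Several of these calls lay near the threshold and were lost when a library was left out, with differences that kept their direction. That of Aldh3a1 in the knockdown was lost without shControl 1 (-0.88, adjusted p = 0.0585 by limma), and that of Ereg without shControl 1 or shControl 3 (0.43 to 0.47, adjusted p of 0.0919 and 0.0956). With GSK3368715, Nqo1 was lost without vehicle 1, vehicle 3, GSK3368715 1 or GSK3368715 2 (0.45 to 0.57, adjusted p of 0.0535 to 0.0782), and Ereg without vehicle 3, GSK3368715 1 or GSK3368715 2 (-0.33 to -0.27, adjusted p of 0.054 to 0.0673). Xdh with MS023 was lost without vehicle 2, vehicle 3 or any MS023 library (0.25 to 0.44, adjusted p of 0.0506 to 0.0893).

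In the direct comparison of the inhibitors, Gsta1 alone of the 28 listed genes was called (0.2% of all genes were called lower), and it was lower with GSK3368715 by 0.99 (95% interval of the difference -1.34 to -0.63, adjusted p = 0.0321 by limma). This call was lost when any MS023 or GSK3368715 library was left out (-1.08 to -0.88, adjusted p of 0.0706 to 0.16). Nqo1 differed by -0.48 (-0.77 to -0.20, adjusted p = 0.148), Ugt1a6a by -0.69 (-1.12 to -0.26, adjusted p = 0.171) and Ereg by 0.34 (0.18 to 0.49, adjusted p = 0.0724). These 3 did not overlap between the inhibitors and missed the threshold in limma. DESeq2 called Ereg (adjusted p = 0.00195) and Ugt1a6a (adjusted p = 0.0237), and limma called both with only the groups compared (0.0413 and 0.0311) and without vehicle 2 (0.0308 and 0.0362).

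Upstream of the receptor, the kynurenine pathway list held 11 genes, of which Ido2, Afmid, Kyat1 and Got2 passed the filter. Only Afmid, a formamidase that makes kynurenine, was called, and it fell by 0.69 with MS023 (standard error 0.16, adjusted p = 0.00937 by limma). Afmid shares 1566 exonic bases with Gm20708 on the same strand, and the 2 genes together differed by -0.54 with MS023. In shPrmt1 and with GSK3368715 limma, edgeR and DESeq2 called 0 genes of the list, and limma had an unadjusted p under 0.05 for 2 (Afmid and Ido2) and 1 (Afmid). Afmid passed the threshold in limma in shPrmt1 with the replicate block (adjusted p = 0.0321) and without shPrmt1 3 (adjusted p = 0.0248), and with GSK3368715 without MS023 3 (adjusted p = 0.0432). Ido2, a relative of Ido1, had 61.6, 70.6 and 77.4 normalized counts in shControl and 52.6, 46.1 and 55.1 in shPrmt1 libraries, a difference of -0.44 (adjusted p = 0.123). In the inhibitor experiment Ido2 had 198, 94.9 and 112 in vehicle, 160, 238 and 233 in MS023 and 154, 186 and 107 in GSK3368715 libraries. These groups overlapped. With MS023, Ido2 had an unadjusted p under 0.05 in limma and was not called. The median over the 4 genes was -0.50 in shPrmt1, -0.06 with MS023 and -0.11 with GSK3368715. Tdo2 and Aadat, a dioxygenase and a transaminase of the pathway, had 0 reads in all libraries.

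The list of tryptophan transport and use held 10 genes, of which 6 passed the filter in the knockdown and 7 in the inhibitor experiment. Slc7a5, a subunit of the large neutral amino acid transporter that carries tryptophan, fell by 0.28 in shPrmt1 (adjusted p = 0.0414 by limma) and by 0.33 with MS023 (adjusted p = 0.0209), with -0.10 for GSK3368715 (adjusted p = 0.532). Maoa, a monoamine oxidase, rose by 0.29 in shPrmt1 (adjusted p = 0.0257) and by 0.39 with MS023 (adjusted p = 8.0e-04), with 0.19 for GSK3368715 (adjusted p = 0.0553). Wars, the tryptophanyl-tRNA synthetase, fell by 0.43 with MS023 (adjusted p = 0.033). With GSK3368715 limma and edgeR called 0 of the 7 and DESeq2 called 1, and limma had 2 (Wars and Maoa) at an unadjusted p under 0.05. The medians were -0.16, -0.21 and -0.03. In the knockdown, the calls of Slc7a5 and Maoa were lost without any shControl library, and also without shPrmt1 3 and shPrmt1 1 respectively (adjusted p of 0.0592 to 0.155). With MS023, Slc7a5 was lost without vehicle 1, vehicle 3, MS023 1 or MS023 2, and Wars without vehicle 1, vehicle 3 or any MS023 library (adjusted p of 0.0571 to 0.103).

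All 7 genes in the list of the AHR complex and its partners passed the filter. Arnt2, a paralog of Arnt, had 17.6, 14.4 and 18.8 normalized counts in shControl and 53.7, 136 and 44.9 in shPrmt1 libraries. It rose by 1.97 (standard error 0.39, adjusted p = 0.0136 by limma), and the call was lost without shControl 1 or shControl 2 (adjusted p of 0.0509 and 0.0504). Its difference was 0.51 with MS023 (adjusted p = 0.12) and -0.03 with GSK3368715 (adjusted p = 0.957). Hsp90ab1, a heat shock protein 90 of the cytosolic AHR complex, fell by 0.31 in shPrmt1 (adjusted p = 0.0417), a call lost without shControl 1, shControl 3, shPrmt1 1 or shPrmt1 3 (0.0591 to 0.157).

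With MS023, Relb, an NF-kB subunit that can pair with AHR, rose by 0.38 (adjusted p = 0.0131 by limma), and Cul4b, a ubiquitin ligase scaffold, rose by 0.25 (adjusted p = 0.0238). Ptges3, the p23 co-chaperone, fell by 0.18 (adjusted p = 0.0213), and its difference missed the threshold with libraries set to the same upper quartile (adjusted p = 0.211). Relb was lost without MS023 3 (adjusted p = 0.0566), Cul4b without vehicle 1, vehicle 3, MS023 1 or MS023 2 (0.0622 to 0.0887), and Ptges3 without vehicle 2, MS023 2 or MS023 3 (0.0533 to 0.0907). With GSK3368715 limma, edgeR and DESeq2 called 0 of the 7, and limma had 2 (Relb and Cul4b) at an unadjusted p under 0.05. The medians of the list were -0.0034 in shPrmt1, 0.04 with MS023 and -0.03 with GSK3368715.

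**Figure D4:**
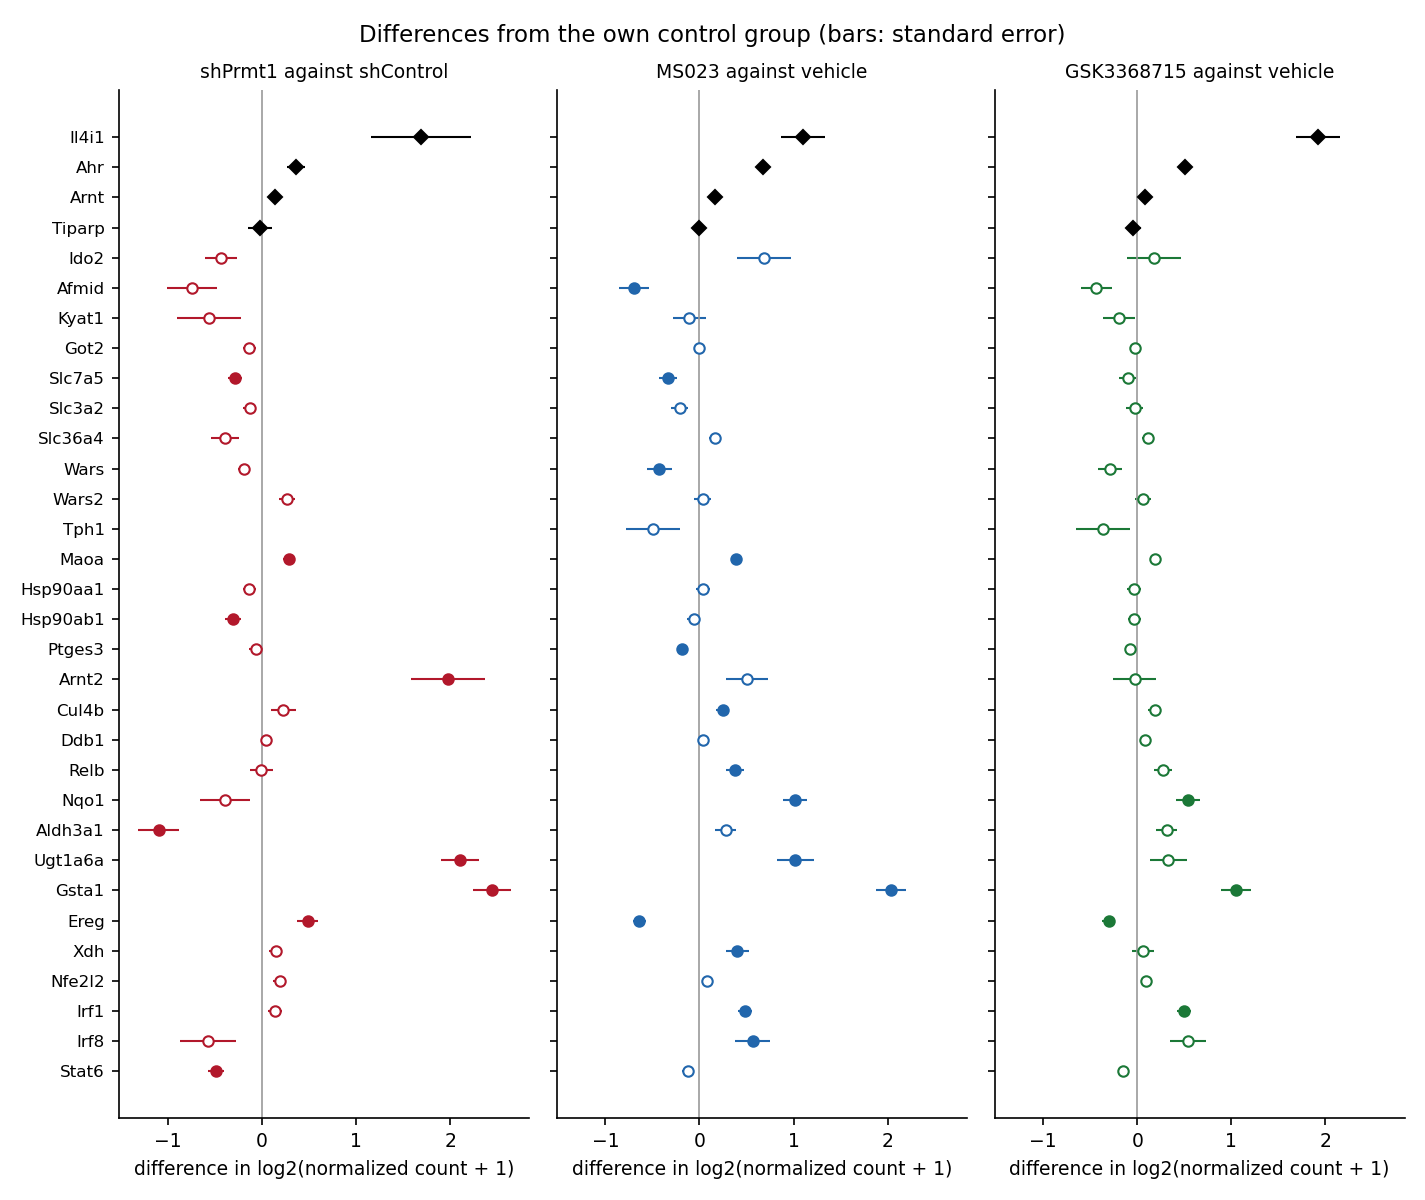
Log2 difference from the own control group for the 4 measurable genes of the axis (black diamonds, described without a test) and the listed genes around it (circles, filled where called by limma at an adjusted p under 0.05), with standard errors as bars. Gsta1 is filled in all 3 panels, at 2.44, 2.03 and 1.05, while Nqo1, Aldh3a1 and Ereg lie on opposite sides of 0 in the knockdown and inhibitor panels.

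The last list held 3 interferon and IL-4 regulators of Ido1 or Il4i1. Irf1, an interferon-induced transcription factor, had 499, 499 and 483 normalized counts in shControl and 557, 524 and 552 in shPrmt1 libraries. With inhibitors it went from 2849, 2482 and 2594 in vehicle to 3845, 3491 and 3721 in MS023 and 3823, 3979 and 3383 in GSK3368715 libraries, without overlap. Irf1 rose by 0.48 with MS023 (standard error 0.08, adjusted p = 0.00126 by limma) and 0.50 with GSK3368715 (standard error 0.08, adjusted p = 0.00409), with 0.14 in shPrmt1 (adjusted p = 0.246). Stat6, the mediator of IL-4 signals, fell by 0.48 in shPrmt1 (adjusted p = 0.00775), with -0.12 and -0.15 for the inhibitors. Irf8 rose by 0.56 with MS023 (adjusted p = 0.0461), a call lost without vehicle 1, vehicle 3, GSK3368715 1 or any MS023 library (0.0557 to 0.155). Over these 3 genes the medians were -0.48, 0.48 and 0.50. They are the values of Stat6 in shPrmt1 and of Irf1 with the inhibitors. Ido1 RNA stood at a total of 1 read in the same 15 libraries, and a link to these genes was not tested.

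**Figure D5:**
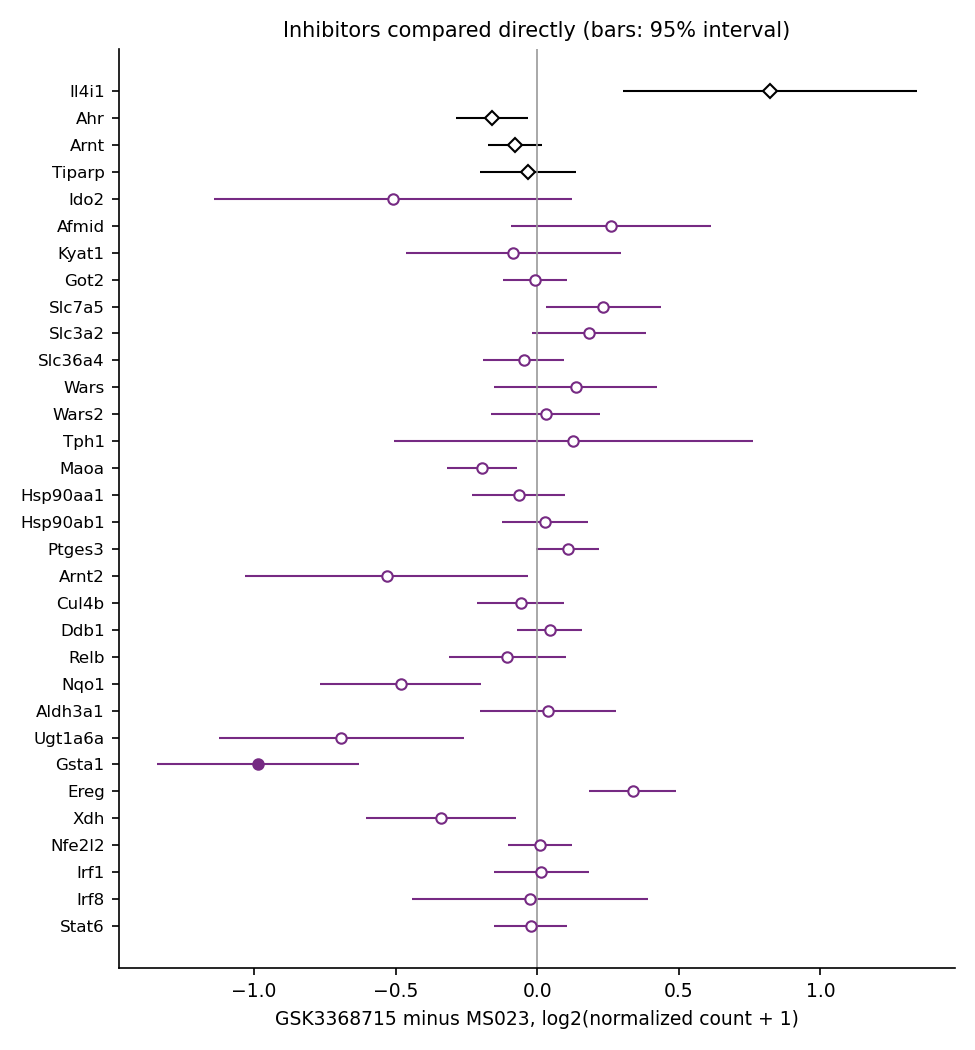
GSK3368715 minus MS023 on the log2 scale for the genes of the axis (diamonds) and the listed genes (circles), with 95% intervals as bars and filled symbols for genes called by limma. Il4i1 lies at 0.82 and Gsta1, the only filled symbol, at -0.99.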

How the data were processed

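RNA-sequencing of 15 CT26 libraries was analysed. The authors quantified paired-end reads with Salmon 1.4.0 on mm10 with default parameters, and deposited a normalized signal per gene, the estimated counts divided by DESeq2 size factors (DESeq2 version not given in the sources used here). All values (100%) were whole multiples of a constant per library within 0.01 reads, so reads could be recovered. The authors' deposited comparison tables, which hold log2 fold changes and p-values, were not used.

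Within each fit, limma 3.58.1 with a trend (R 4.3.3) tested every gene that reached 10 normalized counts in 3 or more libraries, on log2(normalized count + 1), two-sided, with Benjamini-Hochberg adjustment over all genes tested and a threshold of 0.05. The knockdown was fitted as 3 libraries against 3, and the 9 inhibitor libraries together. The 9 genes and the lists were chosen with earlier results of these data known, and every list gene called is named, except that 3 listed genes are not reported here and were left out of all list counts and sums. edgeR 4.0.16 and DESeq2 1.42.0 on the recovered reads were alternatives, and edgeR called 1712 genes in the knockdown, 3620 with MS023, 1242 with GSK3368715 and 69 between the inhibitors. Other alternatives were another pseudocount, filter, scaling, a fit without trend, a replicate block, only the groups compared and each library left out. Exon overlaps come from GENCODE M21, which matched 34372 of 34432 gene IDs, and copies were searched at 95% identity over 30% of a transcript. The series calls its libraries biological replicates but does not say that they came from separate cultures, so p-values measure the spread between these libraries, which may be technical.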

Additional observations from a re-analysis of the deposited data

Results flagged for a closer look

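Among the listed genes around the axis, 4 lay on opposite sides of their controls in the knockdown and in the inhibitor experiment, with every treated library on the same side. Slc36a4, a carrier of neutral amino acids, differed by -0.39 in shPrmt1, 0.16 with MS023 and 0.11 with GSK3368715 on the log2 scale. Nqo1 differed by -0.39, 1.02 and 0.54, Aldh3a1 by -1.10, 0.28 and 0.31, and Ereg by 0.49, -0.64 and -0.30. How many of all genes did the same was not counted, so nothing about the axis is read from this number. The difference between the experiments was not tested, because they were normalized separately. Gsta1 stood out because its effect differed between the inhibitors by -0.99 (GSK3368715 minus MS023, adjusted p = 0.0321 by limma).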

How the results depend on the processing

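The directions of Il4i1, Ahr and Arnt against control held under every alternative that gave a value, and 4 of the 16 gave none for Il4i1 in the knockdown, since the gene did not pass the filter. Tiparp turned sign around 0, and Arnt with MS023 moved from 0.16 to 0.22 (same upper quartile) and 0.20 (same total). Depth limited Ido1, Kynu, Ahrr, Cyp1a1 and Cyp1b1, for which a few reads decide every value.

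Genes called in the knockdown numbered 1684, 2671 with a replicate block and 652 to 2472 without a single library (652 without shControl 1, 883 without shControl 2, 723 without shControl 3, 1072 without shPrmt1 3 and 2472 without shPrmt1 2). Of the listed genes 9 were called, 5 without the trend, 14 with the block and 3 to 13 without a single library. With MS023, 3625 genes and 14 listed genes were called, and 2409 to 3726 and 9 to 14 without a single library (2409 without MS023 2). With GSK3368715, 1254 genes and 4 listed genes were called, 597 and 2 with only the groups compared, and 586 to 1274 and 2 to 6 without a single library (586 without vehicle 3, 757 without GSK3368715 1). Between the inhibitors, 67 genes were called, 38 without the filter, 8 without the trend, 4 with the replicate block, 377 by DESeq2 and 2 to 114 without a single library (2, 5 and 3 without MS023 1, 2 and 3, 11, 10 and 7 without GSK3368715 1, 2 and 3, 28 without vehicle 3 and 114 without vehicle 2). Of the listed genes 1 was called there, 0 without the filter, the trend or with the block, 3 by DESeq2 or with only the groups compared, and 0 to 3 without a single library. The cause of these shifts was not tested.

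Scaling moved the balance of calls. Setting all libraries to 1 total gave 1082 higher and 666 lower genes in the knockdown (861 and 823 as reported) and 2200 and 1509 with MS023 (1784 and 1841). At the same upper quartile they were 2084 and 1080 with MS023 and 18 and 28 between the inhibitors (41 and 26), where the same total gave 22 and 25. The labels do not say whether replicate numbers pair the libraries, and the main fits did not model a pairing. Correlations of same-numbered libraries were 0.0614 to 0.116 in the knockdown, against -0.0943 to 0.0328 for other pairs, and -0.102 to 0.113 elsewhere. In the knockdown each library correlated best with its own number, a hint from the data only. The calls of 3 of 9 listed genes in the knockdown (Ugt1a6a, Gsta1 and Stat6), 7 of 14 with MS023 and 2 of 4 with GSK3368715 (Gsta1 and Irf1) held under every alternative that gave a value. Beside single libraries, calls were lost without the filter (Slc7a5 and Hsp90ab1 in the knockdown, Irf8 with MS023, Nqo1 with GSK3368715), without the trend (Slc7a5, Maoa, Hsp90ab1 and Ereg in the knockdown, Slc7a5, Wars, Cul4b, Xdh and Irf8 with MS023), with the replicate block (Wars, Xdh and Irf8 with MS023, Nqo1 with GSK3368715), at the same total (Slc7a5 and Hsp90ab1 in the knockdown), at the same upper quartile (Ptges3 with MS023, Ereg with GSK3368715), with only the groups compared (Nqo1 and Ereg with GSK3368715) and with edgeR (Irf8 with MS023). Calls were also gained under at least 1 alternative, for Afmid, Wars, Ptges3, Cul4b and Xdh in the knockdown, Arnt2 and Aldh3a1 with MS023, Afmid, Wars, Maoa, Cul4b and Relb with GSK3368715, and Ugt1a6a and Ereg between the inhibitors.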
